A study of Bos taurus with 8 samples.

Results

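A set of 9 members of the chemokine and cytokine families were followed in bovine granulosa cells: the chemokines CXCL5, CXCL2, CXCL8 (listed under its older symbol IL8 as well), CXCL12, CCL2 and CCL20, and the cytokines IL6, IL1B and IL1A. They were found by symbol in the array annotation, and measured values played no part in that match. The list itself was chosen with earlier results of these data known. The 9 genes were represented by 13 of the 43794 probes and by 9 of the 15229 annotated symbols. CXCL2 had 4 probes, IL6 had 2 and every other gene had 1. The RNA came from granulosa cells, the somatic cells that surround the oocyte, of Holstein cows 60 days after calving. Group BHBH held cows with severe negative energy balance, a state in which body reserves are used to meet the demands of milk production, and high blood beta-hydroxybutyrate. Group BHBL held cows with mild negative energy balance and low beta-hydroxybutyrate. All cows of both groups had received 1 injection of PG, 42 h before dominant follicles over 9 mm were aspirated. Each group comprised 12 cows in 4 pools of 3 cows, so that no value belongs to a single animal, and the pooled RNA was linearly amplified. One BHBH pool and 1 BHBL pool shared each pair of arrays, with the dyes exchanged between the arrays of a pair, which gave 8 arrays and 4 pool pairs.

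Chemokines are small secreted proteins that direct the movement of leukocytes by binding receptors on their surface. Those with the CXC motif preceded by the residues ELR, among them CXCL5, CXCL2 and CXCL8, attract neutrophils through the receptors CXCR1 and CXCR2, whereas CCL2 attracts monocytes through CCR2. IL1A, IL1B and IL6 are cytokines of the inflammatory response, and IL1 induces many chemokine genes through NF-kappa-B. In the ovary, leukocytes and their chemokines are known chiefly from ovulation and from the regression of the corpus luteum. In the gene order of the RefSeq table for assembly ARS-UCD2.0, CXCL8, CXCL5 and CXCL2 lie in 1 cluster that also holds PF4, PPBP, CXCL3 and GRO1, and IL1A lies close to IL1B. The table gives CXCL6 and GCP2 as other names of bovine CXCL5. No probe was annotated as CXCL3 or GRO1, which are close relatives of CXCL2, so the extent to which CXCL2 probes bind their transcripts was not tested.

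The share of probes above the negative control spots ranged over the 8 arrays between 67.1% and 81.1% in the BHBH channel and between 68.9% and 81.5% in the BHBL channel. All 14 granulosa markers passed the filter on dim probes, as did 15 of 15 epithelial, 13 of 13 macrophage, 12 of 12 lymphocyte and 11 of 12 neutrophil markers on the array, beside 37884 of all 43794 probes. Passing it therefore does not set these cell types apart. The summed normalised intensity of the granulosa list was 226120 to 316604 in BHBH pools and 227681 to 273102 in BHBL pools, and the ranges overlapped. The serpin SERPINE2 and the inhibin subunits INHA and INHBA had mean log2 ratios of BHBH over BHBL of 0.12, 0.12 and 0.07. In pooled cells, fewer cells of a type and less RNA per cell cannot be told apart, which applies to each gene below.

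By the filter used here (brighter than 2 SD over the mean negative control spot, in BHBH or in BHBL, on 4 or more of 8 arrays), 8 of the 9 genes and 12 of the 13 probes were detected. The exception was CCL20, which attracts lymphocytes and dendritic cells through CCR6. Its probe (EMBV3_04519) was detected on 0 of 8 arrays for BHBH and likewise 0 of 8 for BHBL, and its intensity of 107 to 114 in BHBH pools and 99.6 to 116 in BHBL pools therefore sets no level. CXCL8 was near the controls. CXCL5, CCL2, IL1B and IL1A were above them on 8 of 8 arrays in both groups, as were the brightest CXCL2 probe and the brighter IL6 probe.

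**Figure D1:**
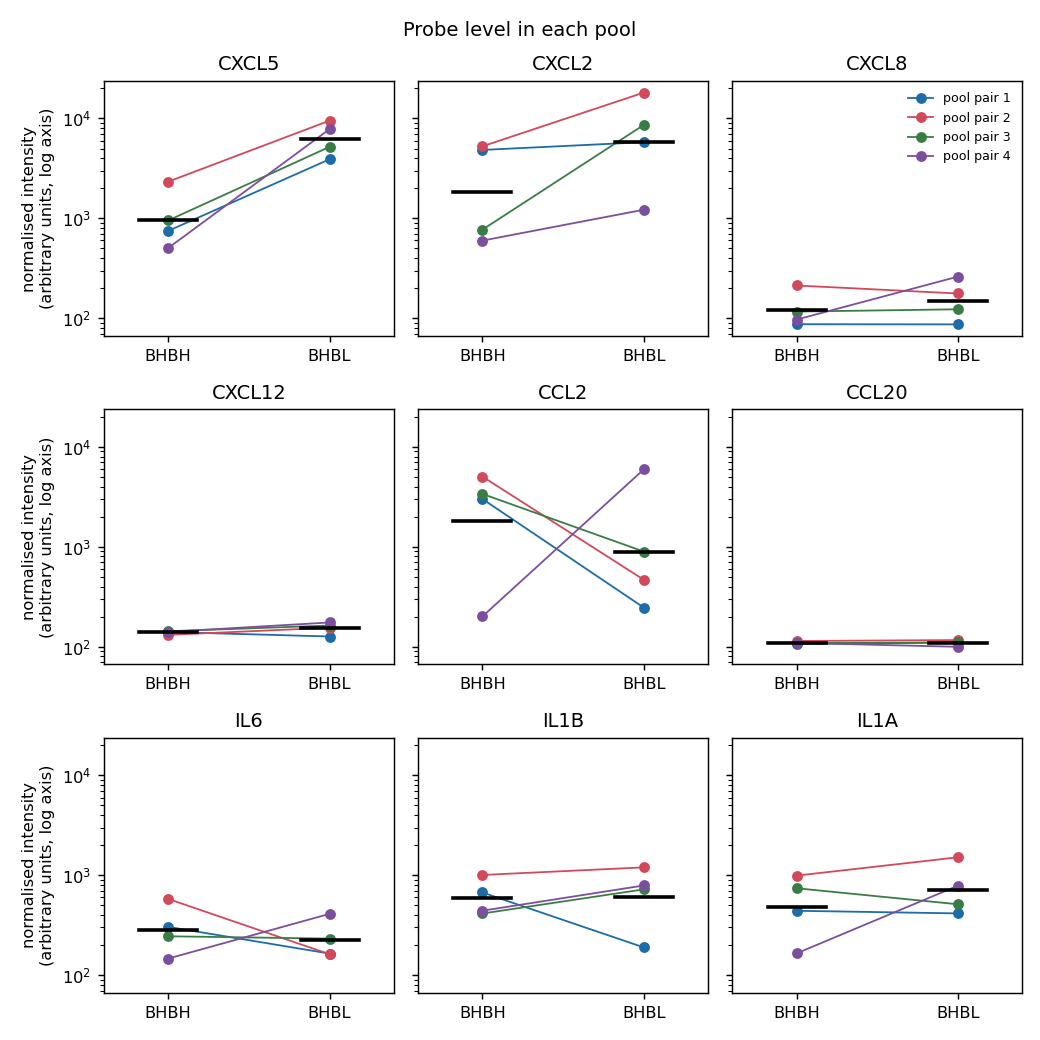
Normalised intensity (arbitrary units, log axis) of 1 probe per gene in the 4 BHBH pools and the 4 BHBL pools, each averaged over both dyes. Coloured lines join the pools that shared arrays, and black bars are geometric means; heights of different probes cannot be compared. For CXCL5 alone among the 8 genes above the controls, every BHBH pool lies below every BHBL pool, and the CCL20 probe was not above the negative controls.

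CXCL5 was the gene with the largest mean difference of the 8. It encodes an ELR chemokine that attracts neutrophils. Its probe (EMBV3_33585) had a normalised intensity of 748, 2328, 952 and 504 in BHBH pools 1 to 4, against 3899.8, 9509, 5193 and 7815 in BHBL pools 1 to 4. Every BHBH pool was lower than every BHBL pool, and the groups did not overlap. The log2 ratio of BHBH over BHBL was -2.38, -2.03, -2.45 and -3.95 in the 4 pool pairs. Its mean of -2.70 ± 0.34 (SE, n = 4 pool pairs) corresponds to a 6.51-fold lower intensity in BHBH. Every SE given with a mean ratio is limma's moderated SE, in which the variance of a gene is drawn toward that of all features. For a gene with a wide spread between pool pairs it is smaller than the SE of its 4 ratios alone.

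The 2 arrays of a pool pair gave nearly the same CXCL5 ratio. The SD between the arrays of a pair was 0.15 on the log2 scale, against 0.85 between pool pairs, and the ratio was below 0 on 8 of 8 arrays, between -3.96 and -1.92. With BHBH in Cy5 the mean was -2.75, and with BHBH in Cy3 it was -2.66. In the deposited log2 ratios of the same arrays the mean was -2.56.

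The CXCL5 difference did not pass the test across all features. Limma on the 4 pool pair ratios gave an adjusted p of 0.714 (Benjamini-Hochberg over 32448 features), with rank 27 by unadjusted p. An exact two-sided permutation test of the 4 BHBH against the 4 BHBL pools gave p = 0.0286, the smallest that 4 against 4 allows, or 0.229 after adjustment over the 8 genes tested. The exact two-sided sign-flip permutation test on the 4 pair ratios cannot go below 0.125, which is the value it gave. When all 8 arrays were fitted with the area number as a replicate block, limma gave an adjusted p of 0.0036. That fit applied 1 correlation of 0.70 between paired arrays to every feature, whereas the CXCL5 arrays of a pair lay closer together than its pool pairs by the SDs above.

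Counts over all features give the background of these statements. In limma on pool pairs 0 of the 8 genes and 0% of 32448 features were called at an adjusted p under 0.05, and at an unadjusted p under 0.05 the counts were 2 of 8 (CXCL5 and CXCL2) and 5.1% of features. With the replicate block, 1 of the 8 genes, CXCL5, was called lower, as were 0.29% of all features. By the brightest probe of each gene, a ratio below 0 on all 8 arrays was found for CXCL5 alone of the 8 and for 1.91% of features. A difference of at least 2-fold lower in all 4 pool pairs was found for CXCL5 alone of the 8, and for 0.173% of features. Separation of the groups, with all 4 BHBH pools below all 4 BHBL pools, was found for CXCL5 alone of the 8, and for 1.57% of features.

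**Figure D2:**
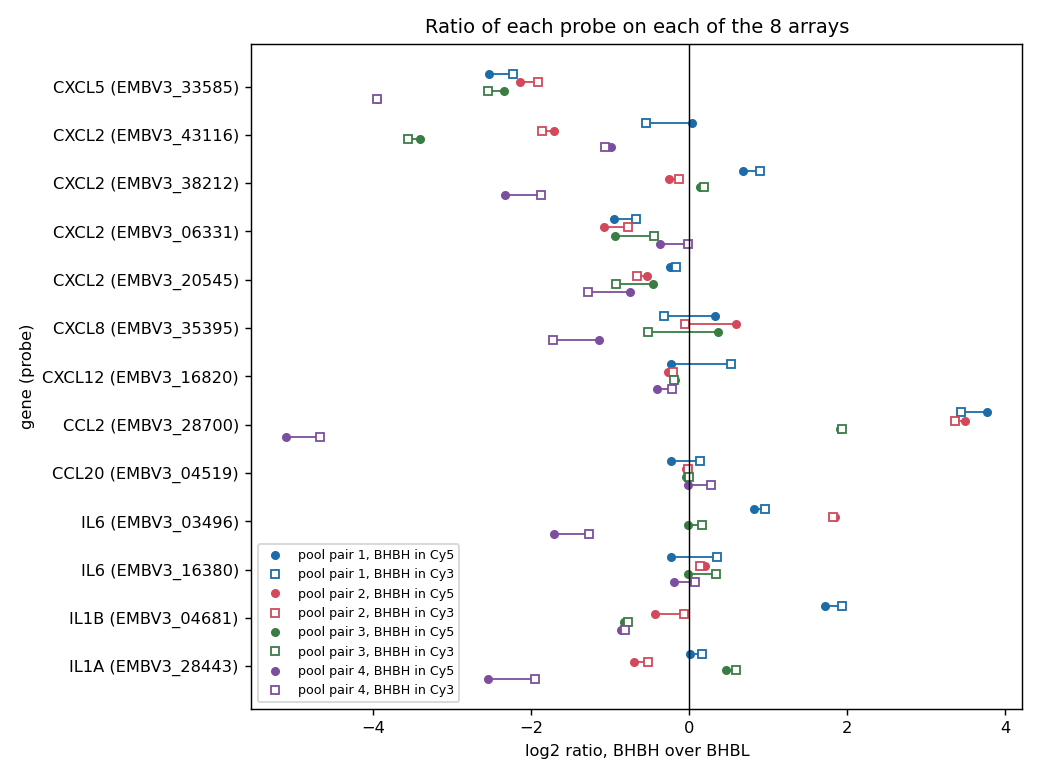
Log2 ratio of BHBH over BHBL (x axis) of all 13 probes (y axis) on each of the 8 arrays. Filled circles are arrays with BHBH in Cy5, open squares arrays with BHBH in Cy3, and a line joins both arrays of a pool pair; CXCL5 is below 0 on all 8 arrays, and CCL2 is above 0 in pairs 1 to 3 and below 0 in pair 4.

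CXCL2, a neutrophil chemokine named GRO3 in older annotation, was read by 4 probes that differed from one another. The brightest (EMBV3_43116) had a normalised intensity of 4839.8, 5261, 769.96 and 598 in BHBH pools 1 to 4, against 5784, 18140.1, 8607 and 1219 in BHBL pools 1 to 4. BHBH was lower within every pair, but the groups overlapped, and pools of 1 group differed by 8.80-fold in BHBH and 14.9-fold in BHBL. The 4 pair ratios were -0.26, -1.79, -3.48 and -1.03. Their mean was -1.64 ± 0.55 (SE, n = 4), a 3.11-fold lower intensity, with a limma adjusted p of 0.919. Without pool pair 3 the mean was -1.02.

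The other 3 CXCL2 probes gave smaller differences. Probe EMBV3_06331 had 227, 271, 346 and 316 in BHBH pools 1 to 4, against 400.1, 514, 560.5 and 360.4 in BHBL pools 1 to 4. These groups did not overlap (1.57% of features), and the ratio was below 0 on 8 of 8 arrays (1.91% of features). The pair ratios were -0.82, -0.925, -0.70 and -0.19. Probe EMBV3_20545 was also below 0 on 8 of 8 arrays, with pair ratios between -1.02 and -0.21, but was detected above the controls on 6 (BHBH) and 7 (BHBL) of 8 arrays. Probe EMBV3_38212 had pair ratios of 0.78, -0.20, 0.16 and -2.10, with 4 arrays below 0 and 4 above. Across the 8 arrays, ratios of the probes correlated with one another between r = -0.80 and 0.72, so the 4 probes did not report 1 common pattern. The mean of all 4 probes gave -0.82 in place of -1.64.

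CXCL8, which attracts and activates neutrophils, was detected above the controls on 3 (BHBH) and 5 (BHBL) of 8 arrays. Its normalised intensity was 87.0, 212, 116 and 96.8 in BHBH pools 1 to 4, against 86.6, 177, 123 and 261 in BHBL pools 1 to 4. The groups overlapped, and pair 4 was the only pair in which BHBH was lower by more than 2-fold. The pair ratios were 0.01, 0.27, -0.08 and -1.43, with a mean of -0.31 ± 0.31 (SE, n = 4) and a limma adjusted p of 0.936. The sign of the mean depended on the arrays: it was 0.04 with BHBH in Cy5 and -0.65 with BHBH in Cy3.

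**Figure D3:**
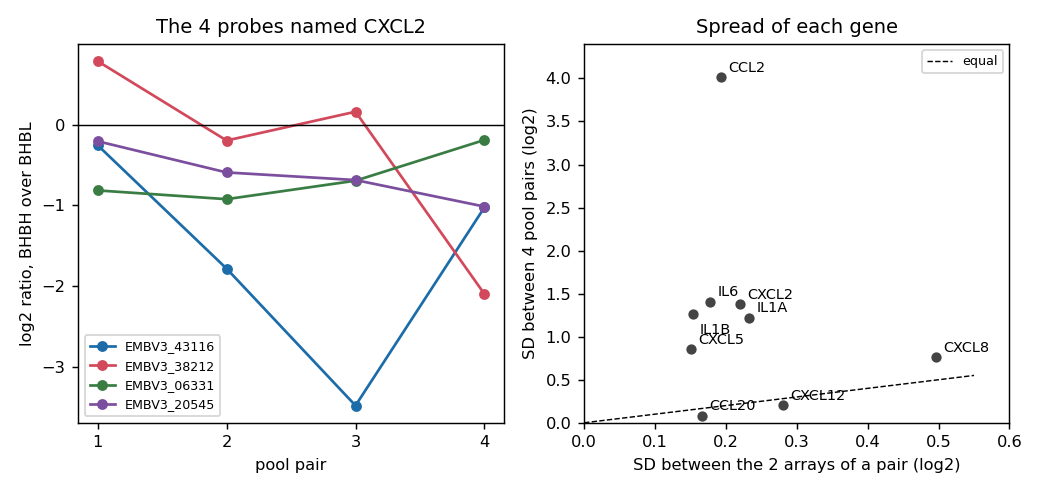
Left: log2 ratio of BHBH over BHBL (y axis) of the 4 probes named CXCL2 in pool pairs 1 to 4 (x axis), with different patterns between pairs. Right: for each of the 9 genes, SD between the 2 arrays of a pool pair (x axis) against SD between the 4 pool pairs (y axis), both on the log2 scale; the dashed line marks equality, and 7 of the 9 genes lie above it.

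CXCL12, the ligand of CXCR4 that retains leukocytes and stem cells in tissues, varied little. Its normalised intensity was 131 to 143 in BHBH pools and 126 to 175 in BHBL pools, and the ranges overlapped. The mean log2 ratio was -0.15 ± 0.11 (SE, n = 4; limma adjusted p = 0.923), and the SD between both arrays of a pair, 0.28, was larger than that between pool pairs, 0.20. The mean was -0.27 with BHBH in Cy5 and -0.02 with BHBH in Cy3, and -0.25 without pair 1.

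CCL2 varied most between pools. It encodes the chemokine MCP1, which draws monocytes out of the blood. Its normalised intensity was 3009, 5044, 3384 and 201 in BHBH pools 1 to 4, against 246, 468, 896 and 5950.1 in BHBL pools 1 to 4. BHBH was higher in pairs 1 to 3 and lower in pair 4. The pair ratios were 3.61, 3.43, 1.92 and -4.89, while the SD between both arrays of a pair was 0.19. The range within 1 group was 25.1-fold among BHBH pools and 24.2-fold among BHBL pools. The mean ratio of 1.02 ± 1.58 (SE, n = 4) had a limma adjusted p of 0.967. It was 2.99 without pair 4 and 0.15 without pair 1.

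IL6, a cytokine of the acute phase response, had a normalised intensity (EMBV3_03496) of 304, 579, 245 and 146 in BHBH pools 1 to 4, against 164, 162, 232 and 410.5 in BHBL pools 1 to 4. The ordering of the pairs resembled that of CCL2, with BHBH higher in pairs 1 to 3 and lower in pair 4, and the groups overlapped. The pair ratios were 0.89, 1.84, 0.08 and -1.49, and the mean was 0.33 ± 0.56 (SE, n = 4; limma adjusted p = 0.970). Without pair 2 the mean was -0.17. The other IL6 probe (EMBV3_16380) lay at 129 to 135 in BHBH pools and 116 to 134 in BHBL pools, detected on 6 (BHBH) and 2 (BHBL) of 8 arrays, with pair ratios between -0.06 and 0.17.

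IL1B, the secreted form of IL1 that inflammasomes process, had a normalised intensity of 672, 1006, 414 and 441 in BHBH pools 1 to 4, against 189, 1199, 722 and 789 in BHBL pools 1 to 4. BHBH was higher in pair 1 and lower in pairs 2 to 4. The pair ratios were 1.83, -0.25, -0.80 and -0.84, and their mean was -0.02 ± 0.50 (SE, n = 4; limma adjusted p = 0.999).

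IL1A, the form of IL1 that is active without processing, had 441, 991, 741 and 165 in BHBH pools 1 to 4, against 415, 1512, 512 and 786 in BHBL pools 1 to 4. Its pair ratios of 0.09, -0.61, 0.53 and -2.25 had no common sign, and the mean was -0.56 ± 0.49 (SE, n = 4; limma adjusted p = 0.927). Without pair 4 it was 0.0034.

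Of the 8 genes, 6 had a mean ratio below 0, against 51.8% of all features. The median mean ratio of the 8 was -0.23, beside -0.01 over all features. It depended on pool pair 4: the medians of the 8 genes were 0.12, -0.24, -0.13 and -1.46 in pairs 1 to 4, and without pair 4 the median of the means was 0.03. Pair 4 held the lowest ratio of 7 of the 8 genes, all but CXCL2.

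The 8 genes also differed from the typical feature in their spread between pool pairs. The SD of the 4 pair ratios was above 1 on the log2 scale for 5 of 8 genes (CXCL2, CCL2, IL6, IL1B and IL1A), against 5.08% of features. The median SD was 1.24 for the 8 genes and 0.24 for all features. For these 5 genes the SD between both arrays of a pair was 0.15 to 0.23, so the spread lay between pools and not between repeated hybridisations.

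Ratios of several genes moved together over the 8 arrays, which come from only 4 pool pairs and are described here with no test. Pearson's r was 0.97 between CXCL5 and CCL2, 0.93 between CXCL5 and IL6, and 0.92 between CCL2 and IL6. CXCL5 and CCL2 shared their lowest ratio in pair 4, although CXCL5 was below 0 in all 4 pairs and CCL2 in 1. CXCL2 stood apart, with r of -0.26 with CXCL5 and -0.12 with CCL2.

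Among 4699 named genes whose pair ratios spanned at least 1 on the log2 scale, those with the ratio pattern most like CXCL5 were PPP1R3C, a glycogen-targeting subunit of protein phosphatase 1 (r = 0.99), IQCD, CLIC2 and TARS, the threonyl-tRNA synthetase (the last with r = 0.987). None of these 4 was lower in all pairs: PPP1R3C had 0.58, 0.97, 0.41 and -1.98, and the likeness lies in the low value of pair 4. Those most like CCL2 were HNMT, which methylates histamine, SLC15A3, SLC11A1, a metal transporter of phagosomes, and CTSH, a lysosomal protease (r = 0.993 to 0.996). HNMT had 1.83, 1.44, 1.02 and -3.48, so it too was higher in BHBH in pairs 1 to 3 and lower in pair 4.

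The genes most like IL6 were PLXDC1, CIAO1, PF4, the platelet chemokine from the CXCL5 cluster, and FCER1A, a subunit of the IgE receptor (r = 0.989 to 0.997). PF4 had pair ratios of 0.54, 1.96, -0.04 and -2.21. Those most like IL1B were GFPT2, ROPN1L, TIMP1, an inhibitor of metalloproteinases, and the complement gene C4A (r = 0.987 to 0.991). TIMP1 had 5.09, -1.73, -2.39 and -3.28, with pair 1 set against the other pairs as in IL1B. Those most like IL1A were CCL14, LOC781924, MAN1A1 and MFNG (r = 0.991 to 0.995), of which CCL14, another chemokine, had 0.76, 0.14, 1.08 and -1.13.

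The brightest CXCL2 probe was most like FOXP4, BCAS4, LOC785416 and CXHXORF41 (r = 0.970 to 0.983). CXCL8 was most like PI4K2A, EDEM1, ITPKC and NCKAP5L (r = 0.974 to 0.992), all with their lowest ratio in pair 4. The likeness was looser for CXCL12 (EFNB1, CCRL2, WNT5B and UPLP, r = 0.860 to 0.950).

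Genes around these 9 in the same pathways were examined in 6 lists, without the 9. In limma on pool pairs no gene of any list was called (0% of features were). Of 24 further chemokine ligands measured, 14 were lower and 10 higher in BHBH, with a median mean ratio of -0.06, and 2 had an unadjusted p under 0.05. The first of these was CXCL17, a chemokine of mucosal surfaces, with a normalised intensity of 169.7, 222, 146 and 211 in BHBH pools 1 to 4, against 418, 1437, 967 and 431 in BHBL pools 1 to 4. The groups did not overlap (1.57% of features) and its ratio was below 0 on 8 of 8 arrays (1.91% of features), as for CXCL5. The CXCL17 probe was detected on 7 (BHBH) and 8 (BHBL) of 8 arrays. Its mean was -1.94 ± 0.36 (SE, n = 4; limma adjusted p = 0.894, and 0.0289 with the replicate block). The fit with the replicate block called 0.29% of features lower.

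The second was CCL21, a ligand of CCR7, with a mean ratio of -0.33 ± 0.10 (SE, n = 4) and 5 of 8 arrays below 0. CCL26 and CCL24, ligands of CCR3, had means of -0.24 ± 0.11 and 0.24 ± 0.13 (SE, n = 4 each). On the arrays with BHBH in Cy5 alone, the mean was above 0 for both CCL21 (0.20) and CCL26 (0.48).

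Of 21 chemokine receptors measured, 13 were lower and 8 higher in BHBH, with a median of -0.06. CCRL2, an atypical receptor, had the smallest unadjusted p with a mean ratio of -0.74 ± 0.23 (SE, n = 4; limma adjusted p = 0.919). CXCR1, a receptor of CXCL8, had -0.11 ± 0.08, CXCR7, a scavenger of CXCL12, -0.18 ± 0.15, and XCR1 -0.11 ± 0.09 (SE, n = 4 each). CCRL2 was detected on 7 of 8 arrays in both groups, and CXCR1 on 4 (BHBH) and 6 (BHBL) of 8 arrays. The mean of XCR1 was 0.66 with BHBH in Cy5 alone, and that of CXCR1 was 0.04 with BHBH in Cy3 alone.

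Of 24 further inflammatory cytokines, 15 were lower and 9 higher in BHBH, with a median of -0.03. IL18, a cytokine of the IL1 family, had the widest span of the 4 named, with pair ratios of 1.08, -1.28, -0.63 and -3.24 and a mean of -1.02 ± 0.71 (SE, n = 4). TNFSF13B, TNFSF15 and IL15 had means of -0.17 ± 0.07, 0.42 ± 0.28 and -0.17 ± 0.13 (SE, n = 4 each). TNFSF13B was detected on 4 (BHBH) and 8 (BHBL) of 8 arrays, and TNFSF15 on 8 (BHBH) and 6 (BHBL). Of 25 cytokine receptors and antagonists, 8 were lower and 17 higher, with a median of 0.05. OSMR, the oncostatin M receptor, was below 0 on 8 of 8 arrays, as were 1.91% of features (-0.68 ± 0.20, SE, n = 4, limma adjusted p = 0.919). OSMR was detected on 6 (BHBH) and 7 (BHBL) of 8 arrays. The IL10RB probe used was above 0 on 8 of 8 arrays (0.26 ± 0.10), as were 311 features. However, a further IL10RB probe had a mean of 0.04, and the mean over probes was 0.11. LIFR had 0.20 ± 0.08 and IL10RA -0.23 ± 0.14, which was 0.05 with BHBH in Cy5 alone.

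Of 37 genes of Toll-like receptor and NF-kappa-B signalling, 24 were lower and 13 higher in BHBH, with a median of -0.07. IRAK1, a kinase of IL1 receptor signalling, had a mean ratio of 0.18 ± 0.08, and NFKB2 had -0.35 ± 0.16 (SE, n = 4 each). IKBKB, the kinase that releases NF-kappa-B, had -0.54 ± 0.28, and NFKBIZ -0.90 ± 0.55, with pair 1 above 0 for both. Of 28 target genes of NF-kappa-B and acute inflammation, 21 were lower and 7 higher, with a median of -0.20. MMP9, a gelatinase of neutrophils and macrophages, had 3.67 and 2.10 in pairs 2 and 3 but 0.27 and -0.25 in pairs 1 and 4 (mean 1.45 ± 0.71). Complement factor CFB had 3.77 in pair 1 and -4.54, -4.26 and -3.04 in pairs 2 to 4 (mean -2.02 ± 1.54). CEBPD and CYLD had means of -0.63 ± 0.39 (SE, n = 4) and -0.31 ± 0.19.

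**Figure D4:**
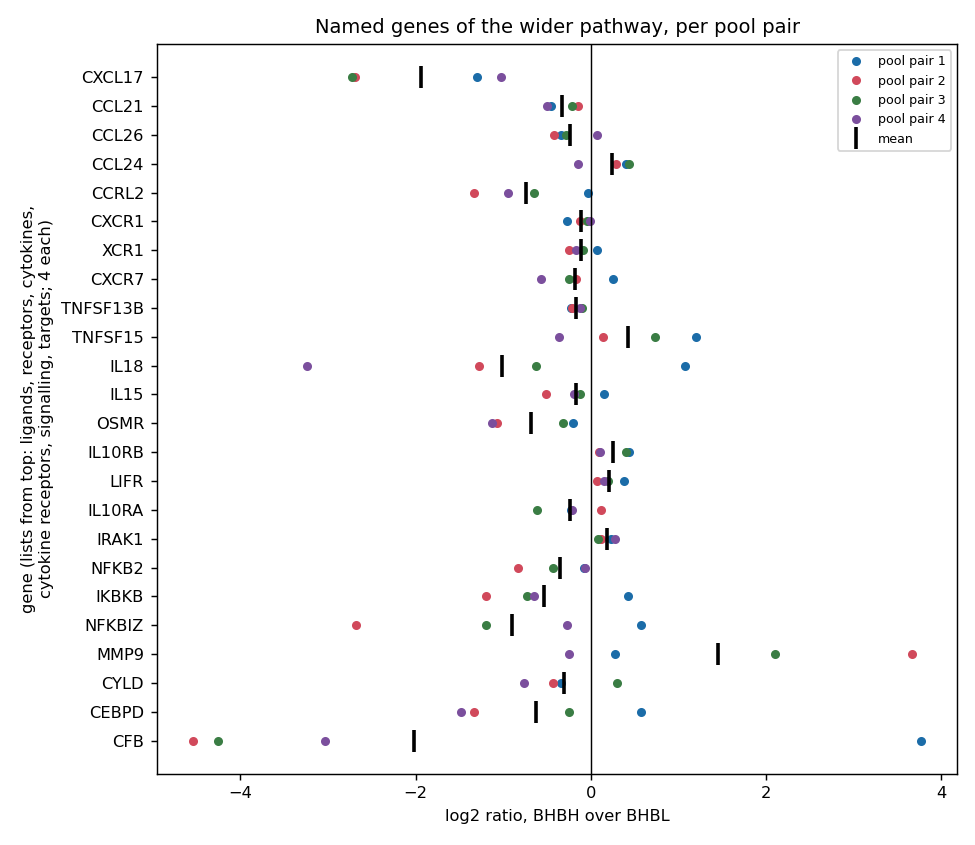
Log2 ratio of BHBH over BHBL (x axis) of the 4 genes with the smallest unadjusted p in each of 6 lists (y axis), with coloured points for the 4 pool pairs and a bar at their mean. CXCL17 is below -1 in every pair, whereas IL18, NFKBIZ, MMP9 and CFB span both sides of 0.

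Markers of other cell types also differed between the pools of a pair, and their part in the differences of the 9 genes was not tested. Of 15 epithelial markers, 15 had a mean ratio below 0, and 8 were below 0 on all 8 arrays (1.91% of features). In limma on pool pairs 0 were called, and 5 were called lower with the replicate block (0.29% of features). Their summed normalised intensity was 111396, 19892, 8022 and 44977 in BHBH pools 1 to 4, against 52049, 187932, 126738 and 193652 in BHBL pools 1 to 4. The sum was lower in BHBH in pairs 2 to 4 and higher in pair 1, but a sum gives bright probes more weight. In pair 1 the list median was below 0: KRT8 and KRT18 had 3.97 and 3.74, whereas WFDC2, KRT7 and MUC1 had -2.65, -2.44 and -2.40. CLDN4, a tight junction protein, had pair ratios of -2.84, -3.86, -4.75 and -2.30, and the keratin KRT19 had 0.20, -2.81, -4.31 and -1.84. The keratin KRT8 had 3.97, -3.41, -4.22 and -2.31, with pair 1 in the opposite direction. CXCL5 was below 0 in all pairs, as CLDN4 was, but in another order: its lowest ratio was in pair 4, where that of CLDN4 was nearest to 0. Orders also differed within the list: AGR2 had -2.44, -4.21, -2.87 and -2.89, and WFDC2 had -2.65, -2.98, -2.83 and -2.20. The medians of the list were -0.18, -2.81, -2.83 and -1.84, with the values nearest to 0 in pairs 1 and 4, as for CXCL17 (-1.30, -2.69, -2.72 and -1.03).

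Neutrophil markers were mixed. Of 11 measured, 9 had a mean ratio below 0, with list medians of 0.12, -0.82, -0.345 and -0.25 in pairs 1 to 4. S100A9, a calcium-binding protein of neutrophils, had -0.41, -3.21, -4.55 and -1.36, with the order of pairs of the brightest CXCL2 probe. The epithelial keratin KRT19 had the same order, so it was not particular to neutrophil markers. Lactoferrin (LTF) had -0.63, -3.94, -1.32 and -2.96. Other markers of the list went against CXCL2 in some pairs: the Fc receptor FCGR3 had 2.29, -0.82, 0.21 and -1.91, IL8RB (CXCR2) had 2.79 in pair 1, and MMP9 was above 0 in pairs 1 to 3, as given above. The sum of the list was 7111 to 15536 in BHBH pools and 7335 to 91234 in BHBL pools, and these ranges overlapped. Of the listed neutrophil genes on the array, CATHL2 did not pass the filter on dim probes.

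The medians of the macrophage and monocyte list had the signs of CCL2 in every pair. The medians of the cytokine receptor and antagonist list had the same signs (0.33, 0.01, 0.04 and -0.21). Of 13 macrophage and monocyte markers measured, 9 had a mean ratio above 0, and their medians were 1.25, 0.93, 0.86 and -3.01 in pairs 1 to 4. CD68, a lysosomal protein of macrophages, had 1.59, 1.30, 1.22 and -3.23, and TYROBP, a signalling adaptor of myeloid cells, had 2.09, 0.72, 0.28 and -2.52. C1QB had 0.10, -0.23, 0.39 and -3.01. The summed intensity of the list was 44929, 80019.8, 70606 and 8416 in BHBH pools 1 to 4, against 23332, 49519, 37188 and 81580.2 in BHBL pools 1 to 4. Lymphocyte markers had medians of 0.40, -0.50, 0.32 and -1.71, with signs as in IL1A (0.09, -0.61, 0.53 and -2.25). Their sums were 7233 to 20663 in BHBH pools and 10579 to 25893 in BHBL pools. The signs of IL1A were also those of the Toll-like receptor and NF-kappa-B signalling medians (0.23, -0.08, 0.15 and -0.17). The medians of the NF-kappa-B target list had them too (0.66, -0.46, 0.05 and -1.18).

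The medians of the stromal list, 2.44, -1.39, -2.17 and -1.76, had the signs of IL1B in every pair. So did the medians of the neutrophil, chemokine receptor, chemokine ligand and inflammatory cytokine lists, so these signs were not particular to stroma. Of the stromal markers, 8 of 8 had a mean below 0. The collagen gene COL3A1 had 3.83, -1.53, -3.52 and -4.84. Other stromal markers had other signs: LUM was -1.02 in pair 1, and COL1A1 and ACTA2 were 0.26 and 0.41 in pair 3. The sum of the stromal list was 14572 to 72713 in BHBH pools and 15843 to 100693 in BHBL pools. The medians of the granulosa list moved less, at -0.30, 0.53, 0.15 and 0.56, and 11 of its 14 markers had a mean above 0. Single granulosa markers differed: FST had -1.70, 1.29, 0.57 and 2.13, FSHR -1.55, 1.27, -0.45 and 1.99, and GATM 1.78, -2.23, 0.95 and -2.15. SERPINE2 stayed between 0.06 and 0.26. Theca medians lay between -0.24 and 0.09, but single theca markers moved more. STAR had 3.10, -0.28, -0.02 and -1.36, CYP11A1 -1.74, 0.87, -1.75 and 1.13, and PTCH1 -0.52, -0.01, -0.09 and 0.81. Endothelial medians lay between -0.20 and 0.09, whereas KDR, detected on 4 (BHBH) and 6 (BHBL) of 8 arrays, had 1.17, -0.89, 0.09 and -0.65. PECAM1 and TIE1 did not pass the filter on dim probes. Red cell markers had medians of 0.26, -0.78, -0.45 and 0.15. The globin gene HBB had 4.10, -4.98, -3.89 and 0.43, and HBA had 1.99, -2.35, -1.08 and -0.0454. The sum of the red cell list was 13228, 1490.5, 1327 and 1766 in BHBH pools 1 to 4, against 1685, 17014, 6748 and 1509.8 in BHBL pools 1 to 4.

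**Figure D5:**
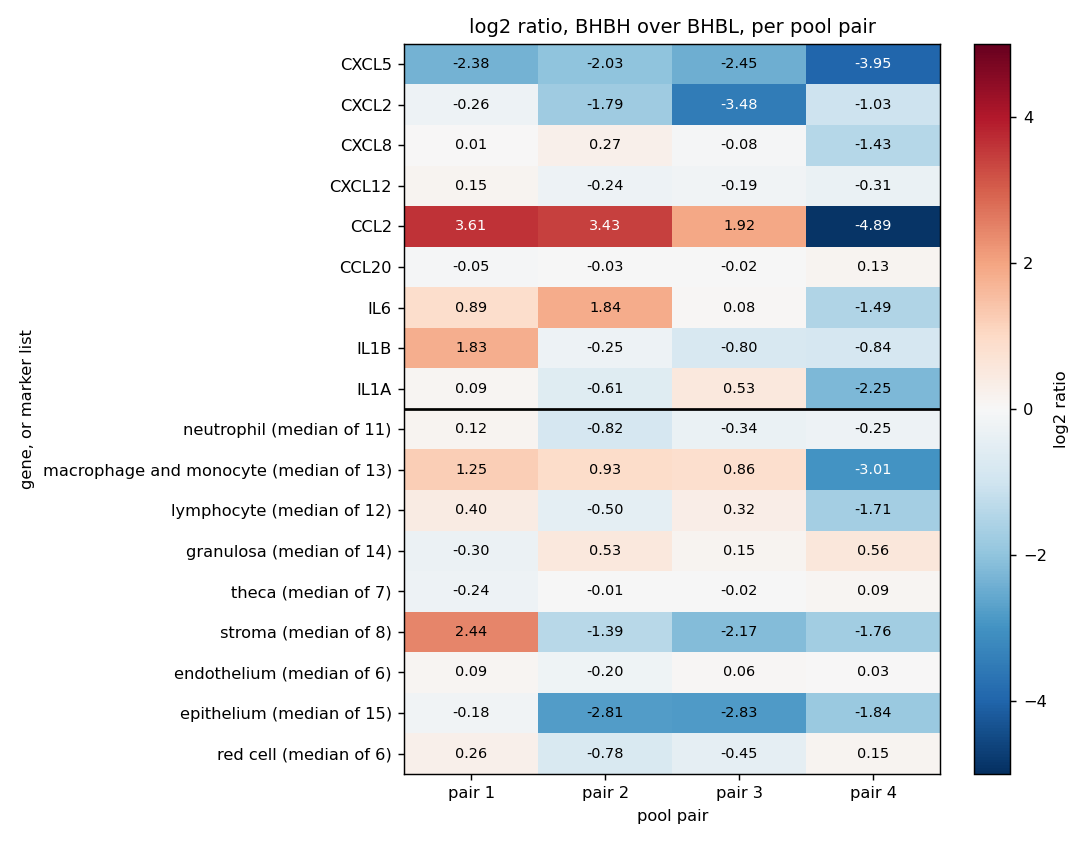
Log2 ratio of BHBH over BHBL in pool pairs 1 to 4 (columns) for the 9 genes (upper rows, brightest probe) and for the median of each marker list (lower rows, number of genes measured in brackets); red is higher and blue lower in BHBH. CXCL5 is below 0 in all 4 pairs, and CCL2 and the macrophage list are above 0 in pairs 1 to 3 and below 0 in pair 4.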

How the data were processed

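Per the labels, RNA of 4 pools per group (825 ng per pool) was hybridised on 2 slides of 4 arrays, with BHBH in Cy5 on slide 289 and in Cy3 on slide 288, so slide and dye cannot be told apart. The area number of an array was taken as its pool pair (1 title reads area 1.2); after removal of slide means, arrays of the same area correlated at r = 0.842 to 0.892 and others at -0.03 or below. The deposited scanner files give median foreground and background intensity per spot (532 nm for Cy3, 635 nm for Cy5), per the file headers. The deposited value table holds log2 ratios, made with limma per the submitters' processing notes. How they were background-corrected and normalised is not given in the sources used. Their direction was BHBH over BHBL for both slides (r = 0.950 to 0.970 with the ratios computed here, medians -0.01 to 0.04).

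Intensities of 45212 spots (153 negative controls) were corrected by normexp (offset 50) and loess-normalised in limma 3.58.1 under R 4.3.3. Ratios were turned to BHBH over BHBL and averaged over both arrays of a pair. A probe was kept where, on 4 or more of 8 arrays, its foreground in one channel or the other was over 2 SD above the mean negative control spot (37884 of 43794 probes). The brightest kept probe stood for a gene, which gave 32448 features: 14084 named genes and 18364 probes without a symbol. Limma (lmFit, eBayes) tested the 4 pair ratios against 0, with Benjamini-Hochberg adjustment over all features, and gave the moderated SEs. Of the probes, 21790 had 1 symbol and 22004 none. Pool levels are single-channel intensities after loess and Aquantile normalisation, averaged over both dyes. Across genes, intensity served to choose the probe of a gene and the markers named, and for the list sums, which give bright probes more weight. No level of one gene was compared with another's. The number of pools limits the precision. P-values of limma on pool pairs measure the spread between pool pairs, whereas the fits on all 8 arrays also use the spread between arrays of a pair.

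Named were the 9 genes, per pathway list the 4 others with the smallest unadjusted p, per gene the 4 most correlated genes, and per marker list up to 3 of the brightest genes. Members, lists, the rule and the tests were chosen with earlier results of these data known. Alternatives covered background correction, normalisation, deposited ratios, probe filters, probe averaging, the replicate block, 8 separate ratios, each slide, the variance model and each pair left out. A test of pool levels, 4 against 4, was added after seeing the data.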

Additional observations from a re-analysis of the deposited data

Results flagged for a closer look

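Each of 52 sets of 4 pool pair ratios was searched for 1 pair standing far from the other 3 by Dixon's 95% critical value, which chance exceeds in about 1 of 20 sets. Of these, 3 were found. The median of the macrophage and monocyte list was -3.01 in pair 4, against 0.86 to 1.25 in the other pairs. The median of the stromal list was 2.44 in pair 1, against -2.17 to -1.39 in the other pairs. The CCL20 probe, which was not above the negative controls, had a ratio of 0.13 in pair 4, against -0.05 to -0.02 in the other pairs. CCL2, the gene with the widest spread, was not among them.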

How the results depend on the processing

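In limma on pool pairs 0 of the 8 genes, 0 of 32448 features and 0 genes of the pathway lists were called, with 2, 1654 and 4 at an unadjusted p under 0.05. With the area number as a replicate block and a dye term the counts of calls were 1 (CXCL5), 97 and 1 (CXCL17), and with 8 separate ratios 1 (CXCL5), 215 and 1 (CXCL17); both fits treat arrays of the same pools as further observations. Every other alternative run gave 0 calls, including the pool levels (4 against 4) added after the data were seen and each pool pair left out. The CXCL5 ratio lay between -2.93 and -2.29 over 17 alternatives, and its adjusted p between 0.0012 and 0.99998. The median of the 8 genes was -0.52 to 0.03 with 1 pair left out. With 1 slide alone or 1 pair left out, the mean of 27 of 32 named genes changed sign or moved by over 1.5 times, including 7 of the 8 genes, all but CXCL5. Of 541 values of 32 genes under the alternatives, 522 kept their sign and side of the threshold. IL1B turned positive at 0.0200 (offset 10), 0.10 (deposited ratios) and 0.0700 (slide 288), and with 1 pair left out lay between -0.63 (without pair 1) and 0.26 (without pair 4). Leaving out 1 pair gave -0.50 to 0.0654 for CXCL8 (highest without pair 4), -0.17 to 0.93 for IL6 (lowest without pair 2) and -0.92 to 0.0034 for IL1A (highest without pair 4). CXCL8 was 0.0375 on slide 289. On slide 289 CCL21 was 0.20, CCL26 0.48, XCR1 0.66 and IL10RA 0.0525, and on slide 288 CXCR1 was 0.0397. The cause of these changes was not tested. Of 9 genes, 8 were above the negative controls under all 3 thresholds; a filter on all 8 arrays dropped CXCL8. Low signal over background limits CXCL8, CXCL12, CCL20, the dimmer IL6 probe and the dimmest CXCL2 probe (EMBV3_20545). CXCL2 probes EMBV3_38212 and EMBV3_06331, though dimmer than the brightest, were above the controls on 8 of 8 arrays in both groups. Among the other named genes, low signal also limits OSMR, CCRL2, CXCR1 and TNFSF13B.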

Other observations

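PF4 and PPBP, platelet chemokines whose genes lie between CXCL5 and CXCL2 in the RefSeq gene order, did not share the sign of CXCL5 in every pair. PPBP had pair ratios of 2.07, 1.91, -1.01 and -1.62, with a mean of 0.34 ± 0.76 (SE, n = 4; limma adjusted p = 0.979). PF4 was given above as one of the genes most like IL6.

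Receptors and antagonists of the 9 genes, chosen for their ligands after their values were seen, were mixed. IL8RB, the older symbol of the neutrophil receptor CXCR2, had pair ratios of 2.79, -1.07, -2.44 and -0.44. CXCR4, the receptor of CXCL12, had 2.21, 0.25, 0.45 and -2.69, a span of both signs like that of CCL2. CCR2, the receptor of CCL2, stayed between -0.35 and 0.05 in the 4 pairs. The IL1 antagonist IL1RN had 1.79, -0.13, -0.295 and -0.735, the signs of IL1B in every pair, and the decoy receptor IL1R2 had 0.60, -1.245, -0.49 and -0.57. The IL6 receptor IL6R had -0.29, 0.165, 0.64 and 0.77, and its partner IL6ST lay between -0.47 and 0.51. TNF had a mean ratio of 0.00 ± 0.20 (SE, n = 4), with pairs between -0.66 and 0.38. None of these genes was called in limma on pool pairs.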
